A study of Mus musculus with 21 samples.

Results

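The choroid plexus hangs in the ventricles of the brain, and its epithelium secretes the cerebrospinal fluid and seals the blood from it. Its cells combine channels, transporters and tight junctions in a pattern that few other cells share, and the homeodomain factor OTX2 is needed for them to form and to persist. A set of 8 genes was followed here by symbol, and all 8 were found among the 24391 genes of the count files. By role they were the regulator Otx2; the water, potassium and chloride channel genes Aqp1, Kcnj13 and Clic6; the sodium bicarbonate cotransporter Slc4a5; the leaky tight junction gene Cldn2; the folate receptor Folr1, which carries folate toward the cerebrospinal fluid; and Kl, which encodes klotho, a co-receptor of a phosphate-regulating hormone.

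RNA-seq counts were available for 21 libraries, made from brain, liver and skin RNA of 2 Jak1 KI mice and 5 WT mice. All mice were newborns at P0, labelled C57BL/6 (the study's methods name C57BL/6J as the background of the knock-in), and received no treatment named in the labels. The KI mice (Jak1 KI +/-) were heterozygous and carried the missense change H595D together with the synonymous changes I596I and Y597Y, introduced by CRISPR-Cas9 and bred from a mosaic male. The WT mice carried none of these, no group with the synonymous changes alone was among the libraries, and sexes, litters and the way each brain was dissected were not given. The counts hold no allele, so the knock-in could not be checked in them. The libraries held 26549326 to 38388133 counts on genes. The brain of WT 5 was the least deep and stood apart from the others: its counts differed from those of the other WT brains by a chi-square of 188 to 222 per gene, against 27.8 to 44.9 among these, and Trpm3, a cation channel gene, was at 8.66 CPM in it and at 44.6 to 73.3 CPM in the other brains.

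Promoter windows of 300 bases, 250 before and 50 after the transcription start, were taken from RefSeq (GRCm38.p6) and existed for 6 of the 8 genes; none was held for Folr1 or Clic6. Aqp1, Cldn2 and Kcnj13 are shown because their levels varied widely between the brains, and Kl because its level did not. Each is printed on the strand of the gene, and capitals mark 3 motifs searched on both strands. These were TAATC, the core bound by OTX2-type homeodomains, its longer form TAATCC, which contains it, and the TATA box TATAAA.
Aqp1: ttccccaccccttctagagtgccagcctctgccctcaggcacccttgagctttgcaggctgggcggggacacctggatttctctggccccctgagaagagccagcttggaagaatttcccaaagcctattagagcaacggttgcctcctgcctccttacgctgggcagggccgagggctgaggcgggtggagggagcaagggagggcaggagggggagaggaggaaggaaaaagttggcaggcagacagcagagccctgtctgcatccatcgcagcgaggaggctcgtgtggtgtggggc
Cldn2: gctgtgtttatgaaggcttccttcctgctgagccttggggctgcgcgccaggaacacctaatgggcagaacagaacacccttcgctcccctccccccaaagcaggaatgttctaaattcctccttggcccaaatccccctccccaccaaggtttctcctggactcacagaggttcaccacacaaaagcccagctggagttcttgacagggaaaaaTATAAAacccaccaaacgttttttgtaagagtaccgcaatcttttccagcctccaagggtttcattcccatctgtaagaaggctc
Kcnj13: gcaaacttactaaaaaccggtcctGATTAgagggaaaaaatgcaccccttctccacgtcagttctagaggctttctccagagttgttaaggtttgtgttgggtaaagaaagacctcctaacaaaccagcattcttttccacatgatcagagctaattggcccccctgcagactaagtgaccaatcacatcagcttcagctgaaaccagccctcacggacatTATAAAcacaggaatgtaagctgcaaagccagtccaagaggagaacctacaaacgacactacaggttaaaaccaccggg
Kl: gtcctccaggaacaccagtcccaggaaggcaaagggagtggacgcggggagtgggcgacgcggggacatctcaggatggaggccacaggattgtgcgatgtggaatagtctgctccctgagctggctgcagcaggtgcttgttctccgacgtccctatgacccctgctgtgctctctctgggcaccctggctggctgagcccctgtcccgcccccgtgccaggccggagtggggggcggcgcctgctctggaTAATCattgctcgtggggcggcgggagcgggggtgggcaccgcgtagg
The windows are chr6:55336049-55336348 (plus strand), chrX:139800558-139800857 (plus strand), chr1:87394680-87394979 (minus strand) and chr5:150952357-150952656 (plus strand). A TATAAA lay 35 to 30 bases before the start of Cldn2 and 29 to 24 bases before that of Kcnj13. Of all 32851 promoter windows, 13.6% held this motif. TAATC was present in Kcnj13 and Kl and in 22% of all windows, and Aqp1 held none of the 3 motifs. The longer TAATCC, in 7.06% of all windows, was found in only 1 of the members' 9 windows, an Otx2 window at chr14:48665060-48665359. In the 4 windows printed, the guanine and cytosine share ran from 46.0% in Kcnj13 to 67.3% in Kl, against a median of 52.7% over all windows.

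In the build of the counts (mm9, GENCODE vM1) all 8 genes are protein coding and lie on 7 chromosomes, Aqp1 and Slc4a5 both on chromosome 6. Aqp1 spans chr6:55286426-55298549, Clic6 chr16:92485981-92541488, Cldn2 chrX:136335367-136345925 and Otx2 chr14:49277354-49287319. Folr1 spans chr7:109006845-109019302, Kl chr5:151755182-151796384 and Slc4a5 chr6:83169822-83254939. Kcnj13, at chr1:89282938-89291304, shares at most 745 of its 1270 exon bases with Gigyf2 on the opposite strand. A base in exons of several Gigyf2 transcripts could be counted more than once, so the true share may be smaller. The library kit does not mark the strand, so the Kcnj13 counts are uncertain. Gigyf2 itself ran from 44.9 to 82.6 CPM in the brains.

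In the brain, Otx2 was the most abundant of the 8 genes per length. Its level over the 7 brains was 11.3 ± 2.80 CPM per kilobase of exon (SD, n = 7). Aqp1 followed at 3.82 ± 2.92, Folr1 at 3.38 ± 2.95, Clic6 at 2.45 ± 1.73 and Kcnj13 at 1.97 ± 1.23 CPM per kilobase. The means of neighbours among these 4 differed by less than the SD between brains, which takes no account of the genes sharing the same brains. Cldn2 (0.677 ± 0.414), Kl (0.454 ± 0.150) and Slc4a5 (0.431 ± 0.323) were lowest on average. Within each brain Cldn2 lay above Slc4a5, at 0.946 against 0.918 CPM per kilobase in KI 1 and 1.01 against 0.361 in WT 5. Kl had no fixed place, above both in WT 1 and below both in KI 1. All 8 genes passed the filter on low counts in the brain.

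The first question was how far these genes belong to the brain libraries, with liver and skin of the WT mice as the baseline. The study's methods report lower RNA integrity for the skin than for the liver, and name no value for the brain. The part of RNA integrity in the comparisons with the skin was not tested. Otx2 was almost confined to the brain. Over the 5 WT mice it had 5658 counts in the brain, 3 in the liver, all in WT 1, and 1 in the skin, and both KI livers and both KI skins had 0, which allows up to 3 counts. The brain to liver ratio of pooled WT CPM was 2050, with a 95% counting interval of 701 to 9941, and the brain to skin ratio was 5735, with an interval from 1029. These ratios hold none of the scaling between libraries (TMM) used in edgeR, and the intervals cover counting error only. With that scaling, the log2 fold changes of Otx2 were 10.02 against the liver and 11.65 against the skin. Otx2 was called higher in the WT brain than in the liver (adjusted p = 1.73e-10) and in the skin (adjusted p = 1.65e-10; edgeR quasi-likelihood test with Benjamini-Hochberg adjustment, called at 0.1).

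Folr1, Kcnj13 and Slc4a5 were also higher in the WT brain than in both other tissues. Folr1 was at 7.67 ± 8.29 CPM in the WT brains (SD, n = 5), 0.290 ± 0.157 CPM in the livers and 0.393 ± 0.235 CPM in the skins, and even its lowest brain, at 1.11 CPM, lay above every liver and skin. Its log2 fold change in edgeR was 3.92 (SE 0.80, adjusted p = 0.000289) against the liver and 4.24 (SE 0.80, adjusted p = 0.000171) against the skin. Kcnj13 was at 1.79 ± 1.09 CPM in the brain and near 0.1 CPM in both other tissues, where it had 0 to 14 counts per WT library. Its groups overlapped because WT brain 1 had 4 counts, and its log2 fold changes were 3.30 and 3.72 (edgeR adjusted p = 0.00211 and 0.000836). Slc4a5 was at 1.56 ± 1.12 CPM in the brain, 0.237 ± 0.095 CPM in the liver and 0.185 ± 0.173 CPM in the skin. Its log2 fold changes were 1.93 and 2.93 (edgeR adjusted p = 0.0107 and 0.000774).

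Aqp1 had the opposite order. It was at 6.71 ± 6.25 CPM in the WT brains, 280.5 ± 65.0 CPM in the livers and 546.1 ± 66.7 CPM in the skins (SD, n = 5), with no overlap between brain and either tissue. The log2 fold change of the brain was -6.16 (SE 0.64, edgeR adjusted p = 1.93e-07) against the liver and -6.42 (SE 0.65, edgeR adjusted p = 1.89e-07) against the skin. Aqp1 is also a gene of red cells and of capillary endothelium. The summed level of 8 erythroid genes was 3899 CPM in the WT livers and 95.2 CPM in the skins against 28.9 to 59.7 CPM in the brains. For 8 endothelial genes it was 313 CPM in the livers and 1122 CPM in the skins against 156 to 270 CPM in the brains. Their part in the Aqp1 levels was not tested.

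Cldn2, Clic6 and Kl were not genes of the brain alone. Cldn2 was highest in the liver, at 19.97 ± 5.81 CPM in the WT mice against 1.80 ± 1.39 CPM in the brain and 2.53 ± 1.19 CPM in the skin. The brain was lower than the liver by a log2 fold change of -4.25 (SE 0.51, edgeR adjusted p = 1.1e-06), and brain and skin overlapped (log2 fold change -0.59, edgeR adjusted p = 0.267). Clic6 was at 6.68 ± 5.67 CPM in the brain, 1.57 ± 0.702 CPM in the liver and 2.44 ± 3.51 CPM in the skin, with overlap in both comparisons. Its log2 fold changes were 1.29 (edgeR adjusted p = 0.143) against the liver and 1.45 (edgeR adjusted p = 0.106) against the skin. Neither was called, but without WT 2 they were 1.65 (adjusted p = 0.0308) and 3.06 (adjusted p = 0.00117). With the mouse as a block, the difference from the skin was 1.73 (adjusted p = 0.0589), and DESeq2 called Clic6 in both comparisons (log2 fold changes 1.36 and 1.53, adjusted p = 0.0840 and 0.0540). Kl was at 2.26 ± 0.669 CPM in the brain. In CPM without TMM scaling, every WT brain lay above every WT liver (0.233 to 1.15 CPM) and skin (0.139 to 1.52 CPM). Whether the groups stay apart after that scaling was not tested. Only the difference from the skin was called (log2 fold change 1.53, edgeR adjusted p = 0.0127; liver 0.86, adjusted p = 0.126).

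In all, 4 of the 8 members were called higher and 2 lower in the WT brain than in the liver, where 43.3% and 40.2% of the 17071 genes tested were called. Against the skin 5 were called higher and 1 lower, where 39.1% and 40.3% of all genes were called. Most genes differed between the tissues. Of the 22 other choroid plexus genes, 21 were tested. Of these, 11 were higher and 6 lower in the brain than in the liver, and 6 were higher and 12 lower than in the skin.

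**Figure D1:**
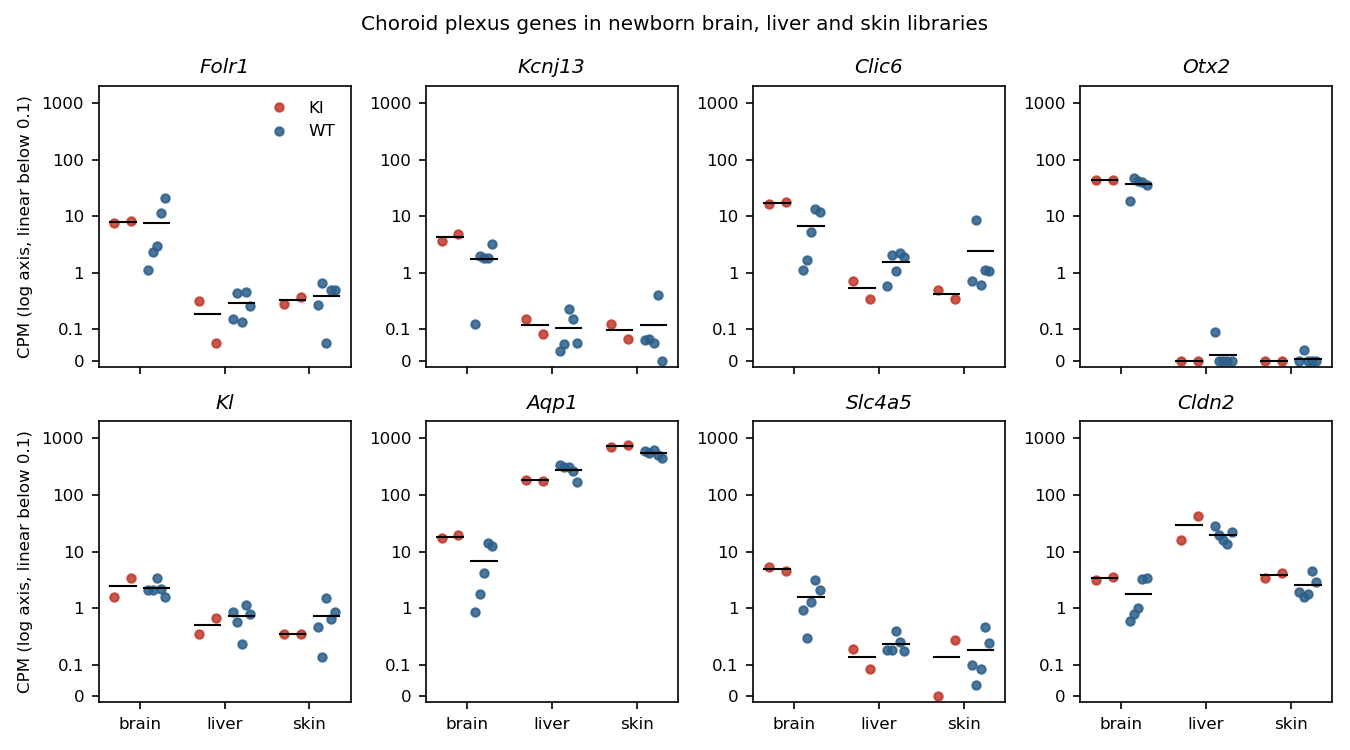
Level of each of the 8 genes as CPM (vertical axis, logarithmic above 0.1 CPM and linear below) in brain, liver and skin; each point is 1 library, red for KI (n = 2) and blue for WT (n = 5), and black lines are group means. Otx2 sits at 18.6 to 46.9 CPM in the brains and at or near 0 elsewhere, whereas Aqp1 is highest in the skin and Cldn2 in the liver.

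The next question was how the members varied between brains of the same genotype. Aqp1 had 28, 54, 132, 481 and 330 counts in WT brains 1 to 5, or 0.860, 1.75, 4.19, 14.3 and 12.4 CPM. Clic6 had 37, 52, 168, 443 and 319 counts, or 1.14, 1.68, 5.34, 13.2 and 12.02 CPM. In both, WT 1 and WT 2 were low, WT 3 was intermediate, and WT 4 and WT 5 were high, so that the highest WT brain was 16.7 times the lowest for Aqp1 and 11.6 times for Clic6. The ratio of the CPM of Aqp1 to that of Clic6 stayed between 0.757 and 1.12 over all 7 brains.

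Cldn2 had 19, 24, 32, 110 and 89 counts in the WT brains, or 0.584, 0.776, 1.02, 3.28 and 3.35 CPM, with the same 2 brains high. Folr1 had 36, 71, 94, 381 and 547 counts, or 1.11, 2.29, 2.99, 11.4 and 20.6 CPM. It also rose above 10 CPM in WT 4 and WT 5 alone, and WT 5 was the highest of all 7 brains. Slc4a5 had 30, 9, 41, 107 and 56 counts, or 0.921, 0.291, 1.30, 3.19 and 2.11 CPM, with its lowest value in WT 2. Kcnj13 differed in shape: it had 4 counts (0.123 CPM) in WT 1 and 60, 57, 62 and 85 counts (1.94, 1.81, 1.85 and 3.20 CPM) in the others.

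Otx2 and Kl varied much less. Otx2 had 606 counts (18.6 CPM) in WT 1 and 1450, 1322, 1341 and 939 counts (46.9, 42.0, 40.0 and 35.4 CPM) in the other WT brains, a span of 2.52-fold. Kl had 69, 66, 106, 72 and 41 counts, or 2.12, 2.13, 3.37, 2.15 and 1.54 CPM. It was highest in WT 3 and lowest in WT 5, unlike any other member. OTX2 also acts in the embryonic forebrain and midbrain, and klotho is made in neurons as well as in the choroid plexus.

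Between WT brains the SD of log2 CPM (prior count 2) was 1.75 for Aqp1, 1.74 for Folr1, 1.65 for Kcnj13, 1.61 for Clic6, 1.24 for Slc4a5 and 1.16 for Cldn2. The median over all genes was 0.330. The share of all genes with a smaller SD ran from 94.7% for Cldn2 to 98.4% for Aqp1 in these 6 genes, and was 75.7% for Otx2 and 55.2% for Kl. In bulk tissue, more choroid plexus cells and more RNA of a gene per cell cannot be told apart.

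**Figure D2:**
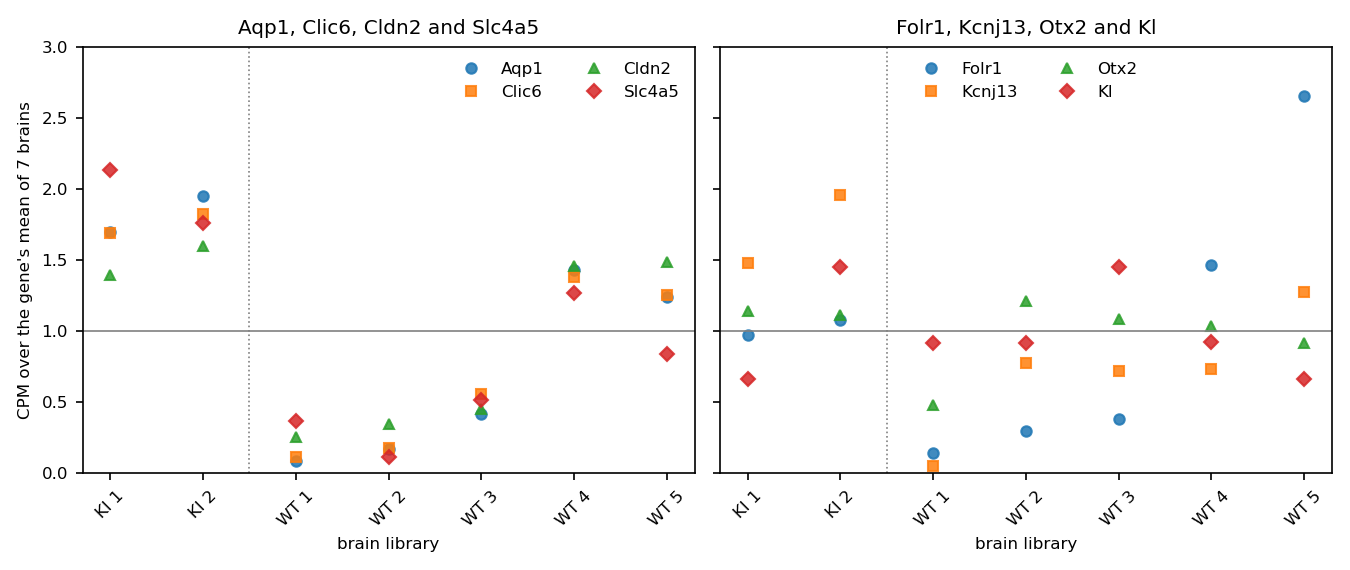
CPM of each gene divided by its mean over the 7 brains (vertical axis, linear from 0) for each brain library (horizontal axis), with a dotted line between the KI and WT libraries; each symbol is 1 gene in 1 brain. Aqp1, Clic6, Cldn2 and Slc4a5 lie low in WT 1, WT 2 and WT 3 and higher in WT 4 and both KI brains, whereas Kl runs from 0.666 to 1.45 times its mean in no such order.

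These levels were then set against 22 other choroid plexus genes, a list that shares none of the 8. Like the members, it was chosen with earlier results of these data known, so it is not independent of them. The permutations below ran over all 7 brains without regard to genotype. The mean log2 CPM of that list was 1.72, 2.28, 2.42, 2.89 and 2.73 in WT brains 1 to 5 and 2.88 and 3.05 in KI brains 1 and 2. Over the 7 brains, Aqp1 followed it with Pearson r = 0.974 and Spearman rho = 0.964 (two-sided exact permutation p = 0.000397 and 0.00278). Clic6 followed it with r = 0.956 and rho = 0.964 (exact permutation p = 0.000397 and 0.00278). Cldn2 had r = 0.932 and rho = 0.786 (exact permutation p = 0.00258 and 0.0480). For these 3 genes the relation remained when the brains farthest from the median list score, WT 1 and WT 2, were left out, with r = 0.956, 0.950 and 0.876.

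Kcnj13 had r = 0.901 and rho = 0.714 (exact permutation p = 0.0103 and 0.0881), and Folr1 had r = 0.855 and rho = 0.750 (exact permutation p = 0.0135 and 0.0663). Without WT 1 and WT 2 these fell to r = 0.662 and 0.499. Slc4a5 had r = 0.766 and rho = 0.857 (exact permutation p = 0.0381 and 0.0238), and r = 0.899 without the same brains. Otx2 had r = 0.730 and rho = 0.214 (exact permutation p = 0.116 and 0.661). Its relation rested on WT 1, without which r was -0.44. Kl had r = 0.020 and rho = 0.179 (exact permutation p = 0.964 and 0.713).

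After Benjamini-Hochberg adjustment over the 16300 genes tested, none of the members and none of all genes passed 0.1 (0.0%). The members' adjusted p for r ran from 0.329 to 1, and that for rho from 0.509 to 0.879. An unadjusted p for r under 0.05 was reached by 6 members, and by 8.67% of all genes. The median r was 0.878 over the 8 members and -0.01 over all genes. With the genotype means taken out, the median r of the members was 0.880, with Slc4a5 at 0.620, Kcnj13 at 0.863 and Aqp1 at 0.960. The brains with low levels, WT 1, WT 2 and WT 3, held 30944283 to 32559821 counts on genes, the KI brains and WT 4 held 33534256 to 35606374, and WT 5 held 26549326; the part of depth in these values was not tested.

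**Figure D3:**
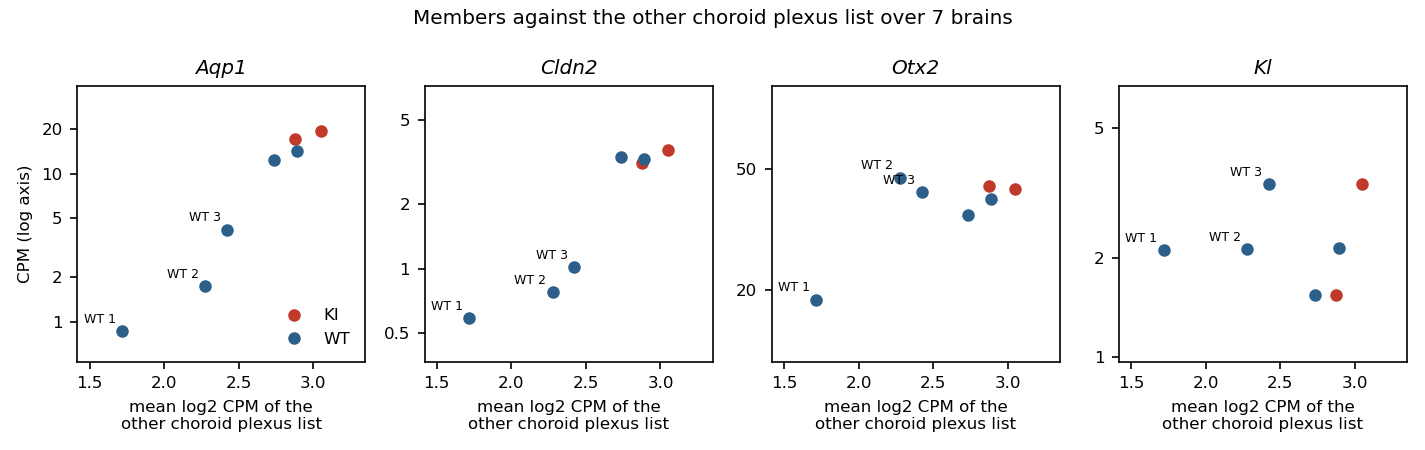
CPM (vertical axes, logarithmic) of Aqp1, Cldn2, Otx2 and Kl against the mean log2 CPM of 22 other choroid plexus genes (horizontal axes) in the 7 brains, red for KI and blue for WT, with WT 1, WT 2 and WT 3 named. Aqp1 and Cldn2 climb with the list, Otx2 is low only in WT 1, and Kl shows no relation.

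The most abundant genes of the other choroid plexus list had ranges of their own. Trpm3 ran from 8.66 CPM in WT 5 to 73.3 CPM in KI 1. Slc29a4, a monoamine transporter gene, ran from 88.9 to 129 CPM, and Enpp2, which encodes autotaxin, from 54.5 to 82.4 CPM. Ace, the angiotensin-converting enzyme gene, ran from 22.6 to 50.8 CPM, with its lowest value in WT 5. On the cerebrospinal fluid secretion list, Atp1b1, a subunit gene of the sodium pump, ran from 418 to 756 CPM. The kinase gene Wnk1 ran from 91.8 to 168 CPM. Slc4a10, another bicarbonate transporter, was at 42.7 CPM in WT 5 and 99.6 to 132 CPM in the others. These genes are also expressed by other brain cells.

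The 12 genes closest in profile to the mean of the standardized members over the 7 brains were Abca7, Lpar2, Cherp, Plekhm2, Inpp5k, Mad1l1, Gaa, Fam84b, Cldn1, Rnf169, Mapk14 and Rbm47, with r of 0.954 to 0.991, given as a description without a test. Of these, 10 varied less than 2-fold over the brains, and Cldn1, a tight junction gene, was the one on the choroid plexus list, at 3.56 to 9.71 CPM. Leaving out 1 brain kept 2 to 7 of the 12. A second description, added after these values were seen, kept genes that spanned more than 2 log2 units over the WT brains, as 1154 of 14494 genes (7.96%) and 6 of the 8 members did. Of these 1154 genes, 13 had r over 0.85, and 5 of the 13 were members. The other 8 included Kcne2, Tmem72 and Car12 of the choroid plexus list, together with Rbm47, Prr32, Rnf43 and Krt18. Kcne2, a potassium channel subunit gene, was at 0.184, 0.291, 2.89, 9.07 and 10.7 CPM in WT brains 1 to 5 and at 7.22 and 7.42 CPM in the KI brains.

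The last question was whether the KI mice differed from WT mice. In the brain, none of the 8 members was called in either direction, and none of the 16322 genes tested was (0.0% higher and 0.0% lower by edgeR). At an unadjusted p under 0.05, 457 genes were higher and 1275 lower, and Slc4a5 was the only member among them. DESeq2 called 56 genes higher and 456 lower, with no member among them. Both KI brains nevertheless lay above all 5 WT brains for Aqp1, Clic6, Slc4a5 and Kcnj13. This pattern held for 4 of 8 members and for 13.0% of all genes tested. The KI brains were also more alike, with a chi-square of 11.4 per gene, than any WT brains, at 27.8 or more.

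Aqp1 had 608 and 658 counts in KI 1 and KI 2 (17.1 and 19.6 CPM) against 28 to 481 counts (0.860 to 14.3 CPM) in the WT brains. Its log2 fold change was 1.40 (SE 0.90, edgeR adjusted p = 0.635). Clic6 had 576 and 586 counts (16.2 and 17.5 CPM) against 37 to 443 (1.14 to 13.2 CPM), a log2 fold change of 1.28 (SE 0.83, edgeR adjusted p = 0.639). The KI brains stood only just above WT 4 and WT 5 in both genes, and far above the other WT brains.

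Slc4a5 had 191 and 149 counts (5.36 and 4.44 CPM) against 9 to 107 counts (0.291 to 3.19 CPM). Its log2 fold change of 1.61 was the largest of the 8 (SE 0.67, edgeR adjusted p = 0.449). Kcnj13 had 132 and 165 counts (3.71 and 4.92 CPM) against 4 to 85 counts (0.123 to 3.20 CPM), with a log2 fold change of 1.22 (SE 0.77, edgeR adjusted p = 0.626). For these 4 genes the groups did not overlap, and none was called.

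For the other 4 genes KI and WT brains overlapped. Cldn2 had 112 and 121 counts (3.15 and 3.61 CPM) in the KI brains, between which WT 4 and WT 5 fell, with a log2 fold change of 0.86 (SE 0.70, edgeR adjusted p = 0.705). Folr1 had 269 and 281 counts (7.55 and 8.37 CPM), below WT 4 and WT 5, with a log2 fold change of -0.01 (SE 1.01, edgeR adjusted p = 0.998). Otx2 had 1570 and 1444 counts (44.1 and 43.0 CPM) and a log2 fold change of 0.22 (SE 0.31, edgeR adjusted p = 0.838). Kl had 55 and 113 counts (1.54 and 3.37 CPM), which lay within the WT range of 1.54 to 3.37 CPM at its ends, and a log2 fold change of 0.08 (SE 0.39, edgeR adjusted p = 0.953).

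The median log2 fold change was 1.04 over the members, 7 of them above 0, against a median of -0.02 and 47.2% above 0 over all genes. Several members co-varied over these same 7 brains, with r = 0.995 for Aqp1 with Clic6 and 0.977 for Aqp1 with Cldn2. Kl did not (r = -0.083 with Aqp1). The directions of the members, and the groups that lay apart, are therefore not separate observations. Of the 22 other choroid plexus genes, 17 were above 0, with a median of 0.43, and both KI brains lay above all WT brains for 6, which were Ace, Abca4, Slc29a4, Trpm3, Col8a2 and Slc16a8. In the cerebrospinal fluid secretion list 10 of 14 were above 0, with a median of 0.27, and both KI brains lay above all WT brains for 5. None of the genes of either list was called, and 13.0% of all genes tested lay apart in this way. Some margins were small. Slc29a4 was at 116.2 CPM in KI 1 and 115.3 CPM in WT 5, and Slc12a2 at 55.2 CPM in KI 1 and 54.7 CPM in WT 4. When the score of the 22 genes was added to the fit as a covariate, an alternative chosen after the data were seen, the median over the members was -0.07. The log2 fold change was then 0.02 for both Aqp1 and Clic6, -0.16 for Cldn2 and Kcnj13, -1.36 for Folr1 and 0.91 for Slc4a5, and none was called. The score was itself high in the KI brains, at 2.88 and 3.05 against 1.72 to 2.89 in the WT brains. Aqp1 and Clic6 followed it closely over these same brains. This fit therefore cannot tell a KI effect on these genes from a difference in the score.

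**Figure D4:**
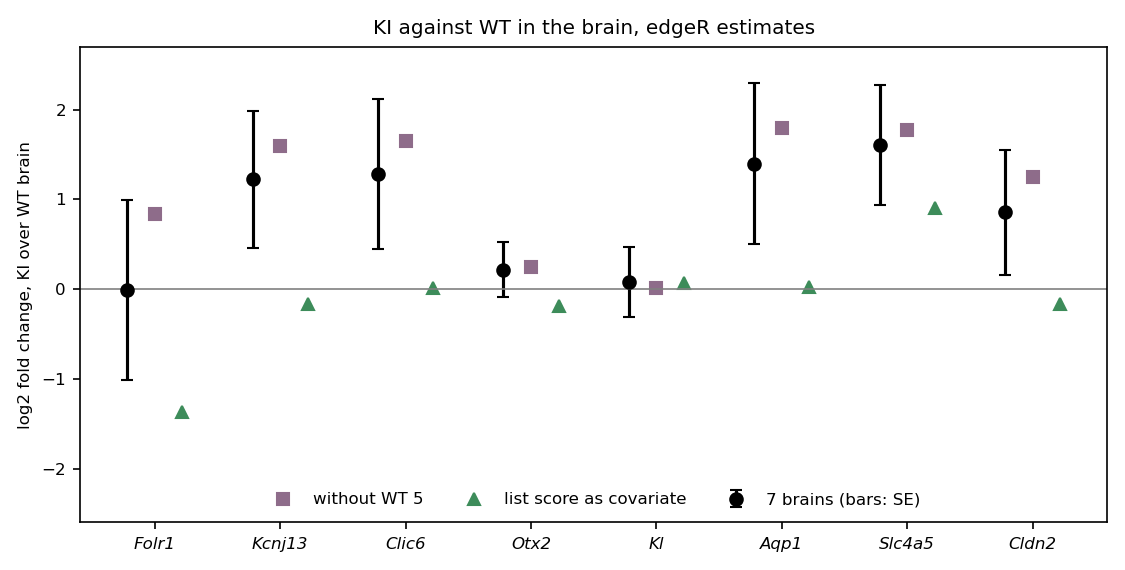
Log2 fold change of KI over WT brains in edgeR (vertical axis) for each of the 8 genes (horizontal axis): circles with SE bars use all 7 brains, squares leave out WT 5, and triangles add the score of 22 other choroid plexus genes as a covariate. The values of Aqp1 and Clic6 fall from 1.40 and 1.28 to 0.02 with the covariate, and none of the values shown was called. The score was itself high in the KI brains, so this fall does not separate a KI effect from the score.

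The comparison depended on WT 5. Without WT 5, 672 genes were called higher and 1026 lower over all genes, still none of the members, and the median over the members was 1.42. The values without it ran from 0.01 for Kl to 1.79 for Aqp1, and Folr1 changed from -0.01 to 0.84 (edgeR adjusted p = 0.550).

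Markers of other tissues also moved between the brains. For 8 pineal and photoreceptor genes, summed CPM was 8.93 and 11.2 in the KI brains and 9.23 in WT 5 but 0.985 to 2.33 in the other WT brains. Tph1 encodes the enzyme of serotonin synthesis in the pineal gland. It was at 4.58, 6.38 and 5.58 CPM in the KI brains and WT 5, and at 0.095 to 0.840 CPM in the other WT brains. Both KI brains lay above all WT brains for 2 of the 4 genes tested, Crx and Sag, as for 13.0% of all genes tested. Crx was only just apart, at 1.69 CPM in KI 1 and 1.66 CPM in WT 5. The remaining gene tested, Aanat, went the other way (log2 fold change -0.22). It was at 0.281 and 0.298 CPM in the KI brains and 0.092 to 0.75 CPM in the WT brains. For 12 meningeal genes, the sum was 774 and 785 CPM in the KI brains and 258 to 1660 CPM in the WT brains, highest in WT 2, in which Aqp1, Clic6, Cldn2 and Slc4a5 were low and Otx2 was at its highest. Igf2 and Col1a2, its most abundant genes, were at 868 and 255 CPM in that brain.

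Of 8 endothelial genes, 6 were above 0, with a median log2 fold change of 0.47. Both KI brains lay above all WT brains for Kdr, Pecam1 and Flt1, as for 13.0% of all genes tested. The sum of the 8 genes was 266 and 270 CPM in the KI brains and 156 to 254 CPM in the WT brains. For 6 midbrain and hindbrain genes the sum was 136 and 141 CPM against 75.4 to 158 CPM, and Barhl1 and En2 ran from 29.0 to 57.4 CPM and from 17.3 to 42.7 CPM. For 10 genes of ependymal cilia it was 86.6 and 105 CPM against 63.4 to 129 CPM, with Foxj1 at 22.8 to 46.3 CPM and Mlf1 at 11.6 to 22.9 CPM. Nothing in these 3 lists was called.

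Of 6 retinal pigment epithelium genes, Rpe65 and Rgr had 0 counts in all brains. The sum of the list was 26.8 and 30.7 CPM against 23.8 to 62.7 CPM, nearly all of it Rlbp1, which glia also express, while Best1 ran from 1.49 to 3.59 CPM. Of this list 3 genes were tested, and 0 of them had a log2 fold change above 0 (median -0.30). Tyrp1, too low to be tested, went the other way, at 0.281 and 0.566 CPM in the KI brains and 0.0298 to 0.129 CPM in the WT brains. Of 8 pituitary genes, Gh and Prl had 0 counts in all brains, and the sum was 3.20 and 2.80 CPM against 1.97 to 7.04 CPM, most of it Pomc and Lhx3. The erythroid sum was 55.1 and 53.5 CPM against 28.9 to 59.7 CPM, with Ank1 at 22.1 to 50.1 CPM and Alas2 at 4.18 to 15.6 CPM. None of these lists held a called gene, and the part of these tissues in the members' values was not tested.

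**Figure D5:**
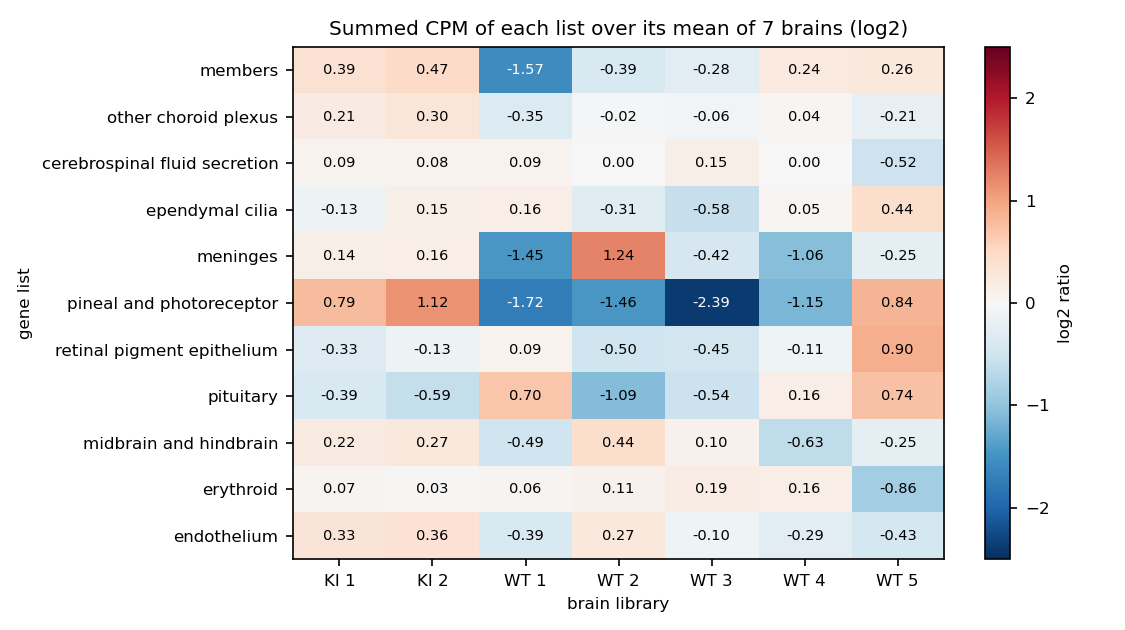
Summed CPM of each gene list (rows) in each brain (columns) divided by its mean over the 7 brains, as log2 ratios printed in the cells and coloured from blue (low) to red (high). The row of the members is at -1.57 in WT 1 and at 0.39 and 0.47 in the KI brains, the meninges row peaks at 1.24 in WT 2, and the pineal row is positive in both KI brains and WT 5 alone.

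In the liver, 5 members passed the filter and none was called, where 3.89% of 14966 genes were called higher and 1.68% lower. Aqp1 was at 186 and 175 CPM in the KI livers against 335, 312, 314, 268 and 173 CPM in the WT livers, so that only WT 5 lay with the KI livers. Its log2 fold change was -0.65 (SE 0.21, edgeR adjusted p = 0.153). It was called without WT 5 (log2 fold change -0.76, adjusted p = 0.0163) and by DESeq2 (-0.64, adjusted p = 0.0375). In the KI livers 4 of 8 erythroid genes were called lower, with a median log2 fold change of -0.54 over the list. Their part in the Aqp1 value was not tested. Clic6 was at 0.715 and 0.347 CPM against 0.572 to 2.20 CPM, a log2 fold change of -1.58 (SE 0.60, edgeR adjusted p = 0.216), and was called only by DESeq2 (-1.59, adjusted p = 0.0781). Cldn2, Folr1 and Kl had log2 fold changes of 0.53, -0.68 and -0.52 (edgeR adjusted p = 0.458, 0.703 and 0.696).

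In the skin 5 members were tested and none was called, where 0.0247% of 16163 genes, 4 in number, were called higher and 0.0% lower by edgeR. At an unadjusted p under 0.05, 467 genes were higher, among them Aqp1, and 271 were lower, with no member among these. DESeq2 called 97 higher and 12 lower and no member. Aqp1 was at 704 and 755 CPM in the KI skins, above the WT range of 459 to 616 CPM (log2 fold change 0.45, SE 0.15, edgeR adjusted p = 0.973). Clic6 was at 0.498 and 0.345 CPM, below the WT range of 0.602 to 8.70 CPM (log2 fold change -2.42, SE 1.23, edgeR adjusted p = 0.999). Without WT 2, the highest of them, it was -1.03. Cldn2, Folr1 and Kl overlapped between the groups, with log2 fold changes of 0.60, -0.20 and -1.06 (edgeR adjusted p = 0.999 for each).

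The difference of the KI effect between tissues was tested in a fit with the mouse as a block, added after the data were seen. Between brain and liver it was called for 470 of 18062 genes (2.6%) and for no member. It was 3.06 for Clic6 (SE 1.21, edgeR adjusted p = 0.231), 2.44 for Aqp1 (SE 0.98, adjusted p = 0.242) and 2.86 for Slc4a5 (SE 1.15, adjusted p = 0.242). Between brain and skin edgeR called it for no gene (0.0%), and 1366 genes had an unadjusted p under 0.05, among them Clic6 of the members.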

How the data were processed

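The authors sequenced paired ends of tissue RNA and mapped the trimmed reads on mm9 using TopHat2. The deposited files hold raw counts per gene symbol, made with HTSeq per the labels; the annotation and counting mode are not given in the sources used here. Summary lines that name no gene held 30.4% to 38.1% of each library's total and were left out. CPM were scaled to the counts on genes without TMM factors, so contrasts of CPM between tissues can differ from the edgeR fold changes. After filterByExpr and TMM scaling, edgeR 4.0.16 (R 4.3.3) gave quasi-likelihood tests, and a Benjamini-Hochberg adjusted p under 0.1 was called. KI and WT were compared within each tissue, and the 3 WT tissues in a single fit. Scripts were tested on simulated data. The closest replicate libraries, those of the KI brains, differed by a chi-square of 11.4 per gene, so none was counted as a duplicate. The members and all gene lists were chosen with earlier results of these data known.

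The genes named were all 8 members, the 4 most abundant genes of the choroid plexus and secretion lists, the 2 most abundant of each other list and the 12 genes most like the members; genes whose groups lay apart, the genes of the second description, Gigyf2 and markers at 0 were chosen after their values were seen. Car12 and Kcne2 are on both choroid lists. Asmt was not analysed here. Same-numbered libraries of different tissues were taken as 1 mouse. After group means were removed, they correlated across genes with r of 0.03 to 0.13 between brain and liver and 0.01 to 0.18 between brain and skin. Whether mice of a group came from separate litters is not given, so p-values measure the spread between these mice. The alternatives were DESeq2 1.42.0, its size factors, no filter, adjusted p under 0.05, a single fit of all 21 libraries, a gene length correction, a prior count of 0.5, a replicate block and each replicate left out. Withheld items are not reported here.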

Additional observations from a re-analysis of the deposited data

Results flagged for a closer look

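In 24 groups of 5 WT libraries, 1 per member and tissue, 4 had a sample far from the others. Chance flags about 1 in 20, but this rate does not hold where nearly all libraries have 0 counts, as for Otx2 in liver and skin. The number flagged is therefore not set against chance. Clic6 was at 8.70 CPM (250 counts) in the skin of WT 2, against 0.602 to 1.10 CPM in the other WT skins. Kcnj13 was at 0.405 CPM (14 counts) in the skin of WT 4, against at most 2 counts in each other WT skin. Otx2 was at 0.0904 CPM (3 counts) in the liver of WT 1 and at 0.0348 CPM (1 count) in the skin of WT 2, with 0 in the other WT libraries of those tissues, so these rest on very few counts. The KI effect on Clic6 went in opposite directions, with both KI brains above all WT brains and both KI skins below all WT skins. The difference was 3.54 on the log2 scale (SE 1.26, edgeR adjusted p = 0.564), which did not pass the threshold. It includes the high skin of WT 2: without that mouse the log2 fold change in the skin was -1.03 rather than -2.42.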

How the results depend on the processing

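With 2 KI mice and WT brains that spanned 2.18-fold to 26.1-fold at the members, precision was low, and low counts limited Kcnj13, Slc4a5 and Otx2 outside the brain. Same-numbered KI and WT libraries share a number only: their deviations correlated with r of 0.02 and -0.10 in the brain, -0.03 and -0.09 in the liver and 0.20 and 0.04 in the skin. With the number as a replicate block, which sets the KI brains against WT 1 and WT 2 alone, 783 genes were called higher and 1382 lower in the brain, 5 of them members, with a median of 2.48 over the members (Aqp1 3.86, Clic6 3.58, Slc4a5 3.13, Cldn2 2.30, Folr1 2.28). In the liver 1 member, Aqp1, was then called lower (log2 fold change -0.81), and in the skin 0 genes were called higher and Kl stood at 0.41. Clic6 against the skin was also called with DESeq2 (1.53), its size factors (1.53) and the fit of all 21 libraries (1.45), Clic6 against the liver with DESeq2 (1.36), and Kl against the liver with both DESeq2 settings (0.93 each). The block changed no call between the WT tissues other than that of Clic6. In the brain DESeq2 called 56 genes higher and 456 lower, and the fit of all 21 libraries 173 and 441, with no member called and Folr1 at 0.085 in the latter. With the list score as a covariate the median over the members was -0.071, with Cldn2 and Kcnj13 at -0.16 and Otx2 at -0.19. Leaving out 1 mouse gave 0 to 672 genes higher and 0 to 1026 lower, all from the fit without WT 5, no member called, medians over the members of 0.79 to 1.42, Folr1 from -0.28 to 0.84 and Kl from -0.56 to 0.55. In the liver an adjusted p under 0.05 left 302 genes higher and 81 lower, DESeq2 called 623 lower, 2 of them members, and the fit of all libraries 156 and 86. Leaving out 1 mouse gave 49 to 784 higher and 7 to 506 lower, 0 to 1 members, Cldn2 from -0.29 to 1.06 and Folr1 from -2.28 to 0.087. In the skin an adjusted p under 0.05 left 0 higher, DESeq2 called 97 and 12, the fit of all libraries 22 and 1, and leaving out 1 mouse 0 to 1 higher, with Folr1 from -0.48 to 0.0525. Against the skin the median over the members in the WT brain ran from 1.51 to 3.00 without 1 mouse. Of the 12 genes most like the members, 4 were shared with genotype means taken out and 2 to 7 without 1 brain. Taking the median over the list gave Kl r = -0.14, and without 1 brain r ran from -0.33 to 0.22 for Kl and from -0.44 to 0.90 for Otx2. The cause of these changes was not tested.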
